A study of Mus musculus with 4 samples.

Results

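C-type lectin receptors of myeloid cells were followed as 10 genes, Clec7a, Clec4n, Clec4e, Clec4d, Cd209d, Ly75, Clec12a, Clec4a1, Clec4a2 and Clec4a3. They were chosen by symbol, and all 10 were found among the 46078 gene rows of the count table and passed the filter on low counts, with 14995 genes tested in all. The comparison addresses how RNA levels of CD103-positive dendritic cells (DCs) change when DCs can lose Il33, a cytokine gene of the IL-1 family. Poly(A) RNA was sequenced from 2 libraries of CD11c-cre-Il33flx/flx mice (Il33flx), which carry a Cre transgene under the CD11c promoter and loxP-flanked Il33 alleles, and from 2 libraries of CD11c-cre mice (Ctrl), which carry the transgene alone. Mice of both groups had carried EL4-Flt3 tumour cells, which descend from the mouse T lymphoma EL4, for 10 days. From spleen and mesenteric lymph node, the cells sorted were MHC class II-positive cells with CD103, CD11b and CD45 on their surface, and CD64-positive cells, which include most macrophages, were left out. CD11c is also made by some macrophages and monocytes, so the transgene is not limited to DCs. Whether each library came from its own animal is not stated, so the p-values here reflect only how these libraries spread, which may be technical.

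C-type lectin receptors are membrane proteins with a carbohydrate-recognition fold, through which myeloid cells sense fungi, mycobacteria and dead cells. Activating members signal through the kinase Syk and the adaptor CARD9, either from their own cytoplasmic tail or through the Fc receptor gamma chain. Inhibitory members carry a tyrosine motif that recruits the phosphatases SHP-1 and SHP-2, and others mainly take up antigen for presentation.

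Libraries held 67707682 to 81217828 gene counts. Levels are reads of a gene per fixed number of counted reads (CPM), with TMM factors that correct for differences in library composition. Il33 itself was near the detection limit, with 4 and 0 counts in Il33flx libraries and 4 and 8 in Ctrl libraries, so it does not check the labels. The sort genes were read in every library, with Ptprc (CD45) at 563 to 1012 CPM, Itgam (CD11b) at 97.8 to 128 CPM, Itgae (CD103) at 56.8 to 116 CPM and Fcgr1 (CD64) at 3.66 to 5.50 CPM. Itgax, which encodes CD11c, was at 359 and 407 CPM in Il33flx libraries, against 647 and 517 CPM in Ctrl libraries. On the first principal component, 50% of the variance, Ctrl 1 lay at -70.1 and the other libraries at 18.8 to 26.2, so results are also given without Ctrl 1.

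None of the 10 receptor genes was called different between Il33flx and Ctrl. At an adjusted p below 0.05 in edgeR's quasi-likelihood test 0 of 10 passed, where 0.00667% of all genes tested did, and at an unadjusted p below 0.05 also 0 of 10 passed, where 3.26% of all genes did. DESeq2 and limma-voom likewise called 0 of 10. The fitted log2 fold change of Il33flx over Ctrl was above 0 for 9 genes, Cd209d at 0.00 among them, and negative for 1, with a median of 0.32 beside 0.01 over all genes tested. That median was -0.03 without Ctrl 1 and 0.94 without Ctrl 2, and 4 of the 10 genes stayed positive without Ctrl 1. Without Ctrl 2, where Ctrl 1 is the only control, 6 of the 10 genes had an unadjusted p below 0.05 (edgeR), where 20.6% of all genes tested did, and 0 an adjusted one. Groups did not overlap for 2 of the 10 genes, both higher in Il33flx, where 15.4% of all genes tested were higher and 14.9% lower without overlap.

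**Figure D1:**
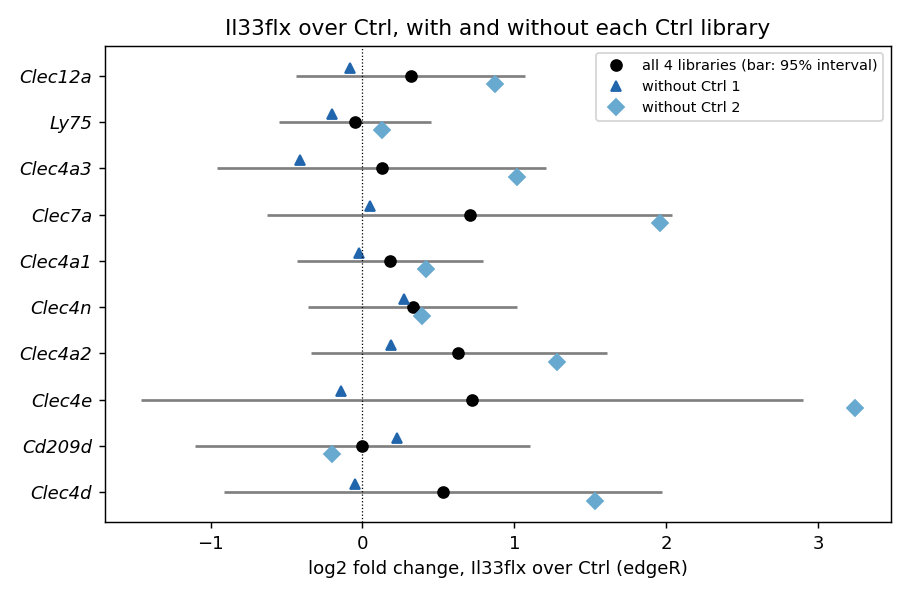
Log2 fold change of Il33flx over Ctrl (x axis, edgeR) for the 10 receptor genes (rows), with all 4 libraries as a black point and its 95% interval as a bar, without Ctrl 1 as a triangle and without Ctrl 2 as a diamond. Every bar crosses 0, and the values of Clec4e run from -0.14 without Ctrl 1 to 3.24 without Ctrl 2.

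The genes varied most through Ctrl 1, which had the lowest value of the 4 libraries for 8 of the 10 genes and the highest for 1, Cd209d. Over all genes tested Ctrl 1 was lowest for 36.0% and highest for 34.2%. The summed level of the 10 genes was 399 and 389 CPM in Il33flx libraries, against 245 CPM in Ctrl 1 and 428 CPM in Ctrl 2. These are bulk libraries, in which fewer cells of a type and less RNA per cell cannot be told apart.

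Among the receptors that activate Syk, Clec7a encodes Dectin-1, which binds beta-glucans of fungal walls and signals from its own tail. Clec7a (ENSMUSG00000079293, chromosome 6, 129461591 to 129472779, minus strand, GRCm38) is classed as a polymorphic pseudogene in the annotation used. It had 27.6 and 29.8 CPM in Il33flx libraries, against 7.32 CPM in Ctrl 1 and 27.8 CPM in Ctrl 2. Ctrl 2 lay within the Il33flx values and Ctrl 1 alone was low, 3.80-fold below Ctrl 2. Il33flx over Ctrl gave a log2 fold change of 0.71 ± 0.55 SE, with a 95% interval of -0.63 to 2.04 (adjusted p = 0.995, edgeR). Without Ctrl 1 the change was 0.05.

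Clec4e encodes Mincle, which recognises mycobacterial cord factor and a nuclear protein of dying cells and pairs with the Fc receptor gamma chain. Clec4e (ENSMUSG00000030142, chromosome 6, 123281789 to 123289870, minus strand) varied most of the 10 genes. It had 14.9 and 8.89 CPM in Il33flx libraries, against 1.25 CPM in Ctrl 1 and 13.1 CPM in Ctrl 2. In counts these were 1049 and 630 in Il33flx libraries, against 96 in Ctrl 1 and 989 in Ctrl 2. Ctrl 1 stood 10.5-fold below Ctrl 2, and the groups overlapped. Only 0.219% of the 11410 genes of at least 1 CPM on average had a larger difference between the Ctrl libraries. Between the Il33flx libraries the log2 difference was 0.74, which 4.78% of those genes exceeded. The log2 fold change of Il33flx over Ctrl was 0.72 ± 0.91 SE, with a 95% interval of -1.46 to 2.90 (adjusted p = 0.995, edgeR), the widest interval of the 10 genes.

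Clec4d encodes MCL, a partner of Mincle that supports its surface level, and lies next to Clec4e (ENSMUSG00000030144, chromosome 6, 123262111 to 123275265, plus strand). It had 2.01 and 1.31 CPM in Il33flx libraries, against 0.573 CPM in Ctrl 1 and 1.73 CPM in Ctrl 2. The order of the libraries matched that of Clec4e, with Ctrl 1 lowest, Il33flx 2 next, then Ctrl 2 and Il33flx 1. In Ctrl 1 the exact 95% Poisson interval was 0.417 to 0.770 CPM, below the interval of each other library (lowest bound 1.06 CPM), where intervals cover counting error only. Its log2 fold change of Il33flx over Ctrl was 0.53 ± 0.60 SE (adjusted p = 0.995, edgeR). The level of Clec4e over that of Clec4d, in CPM per kilobase of exon, was 2.38 and 2.18 in Il33flx libraries, against 0.703 in Ctrl 1 and 2.45 in Ctrl 2.

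Clec4n encodes Dectin-2, which binds mannans and also pairs with the Fc receptor gamma chain (ENSMUSG00000023349, chromosome 6, 123229843 to 123247021, plus strand). It had 5.01 and 4.65 CPM in Il33flx libraries, against 3.66 CPM in Ctrl 1 and 4.03 CPM in Ctrl 2. Both Il33flx libraries were above both Ctrl libraries, and the Ctrl libraries lay closer to each other than for Clec4d and Clec4e. The means were 4.83 ± 0.261 CPM in Il33flx and 3.84 ± 0.26 CPM in Ctrl (SD, n = 2 each). Its log2 fold change was 0.33 ± 0.29 SE, and its 95% interval ran from -0.36 to 1.02 (adjusted p = 0.995, edgeR). Without Ctrl 1 the change was 0.27.

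The promoter windows of the 3 genes with the widest spread between Ctrl libraries, Clec4e, Clec7a and Clec4d, are shown with that of Ly75, whose Ctrl libraries differed by a log2 value of -0.35 only. Windows run from 250 bases before to 50 bases after the annotated start and are RefSeq sequence of GRCm38.p6. They lie at chr6:123289822-123290121 on the minus strand, chr6:129472730-129473029 on the minus strand, chr6:123261857-123262156 on the plus strand and chr2:60383224-60383523 on the minus strand. Each is printed 5′ to 3′ along its gene's strand, and capitals mark a match, on either strand, to any of 4 motifs.
Clec4e: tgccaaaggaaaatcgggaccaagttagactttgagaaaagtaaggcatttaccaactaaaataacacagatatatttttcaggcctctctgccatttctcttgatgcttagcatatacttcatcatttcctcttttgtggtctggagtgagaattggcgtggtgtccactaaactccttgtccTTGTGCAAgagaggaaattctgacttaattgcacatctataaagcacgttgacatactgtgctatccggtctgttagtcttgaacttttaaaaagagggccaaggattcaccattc
Clec7a: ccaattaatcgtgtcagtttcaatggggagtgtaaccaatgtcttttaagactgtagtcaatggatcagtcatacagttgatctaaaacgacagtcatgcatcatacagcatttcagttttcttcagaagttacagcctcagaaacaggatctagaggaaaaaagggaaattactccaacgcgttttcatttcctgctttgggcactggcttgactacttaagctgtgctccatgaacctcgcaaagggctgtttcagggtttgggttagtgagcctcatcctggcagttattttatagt
Clec4d: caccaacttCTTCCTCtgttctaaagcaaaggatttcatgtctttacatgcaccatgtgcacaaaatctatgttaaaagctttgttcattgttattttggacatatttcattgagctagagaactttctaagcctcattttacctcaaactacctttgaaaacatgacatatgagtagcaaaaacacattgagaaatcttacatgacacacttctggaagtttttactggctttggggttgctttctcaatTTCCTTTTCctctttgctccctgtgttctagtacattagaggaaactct
Ly75: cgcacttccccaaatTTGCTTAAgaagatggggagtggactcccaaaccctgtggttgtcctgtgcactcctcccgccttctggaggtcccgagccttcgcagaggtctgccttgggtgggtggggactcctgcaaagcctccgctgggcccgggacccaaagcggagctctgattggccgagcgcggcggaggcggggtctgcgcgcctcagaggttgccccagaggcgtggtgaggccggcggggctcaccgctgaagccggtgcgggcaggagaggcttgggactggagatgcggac
The motifs searched were the PU.1 core GAGGAAG, a C/EBP motif TTGCNNAA, an AP-1 motif TGANTCA and a core of the interferon response motif, GAAANNGAA, and matches may overlap. Mincle was first described in mouse macrophages as a target of the C/EBP family factor NF-IL6. The window of Clec4e held a C/EBP match that began at position -66 from the start, and that of Ly75 held a C/EBP match at -235. The window of Clec4d held a PU.1 core match at -241 and an interferon response match next to the start, and that of Clec7a held none of the 4 motifs. Windows were available for 9 of the 10 genes. Among these, 3 held the PU.1 core, beside 13.6% of 32851 promoter windows of the same length, and 3 held the C/EBP motif, beside 10.8%. AP-1 matches stood in 2 windows, beside 7.81% of all windows, and the interferon response motif in 1, beside 8.56%. The windows with AP-1 were those of Clec12a, which also held the PU.1 core and the C/EBP motif, and of Clec4a2. They begin at 129349994 and 123122440, inside the gene spans given here, which begin at 129342691 and 123106428. Other starts of these 2 genes were not searched. A match describes letters in the window and not a bound site.

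**Figure D2:**
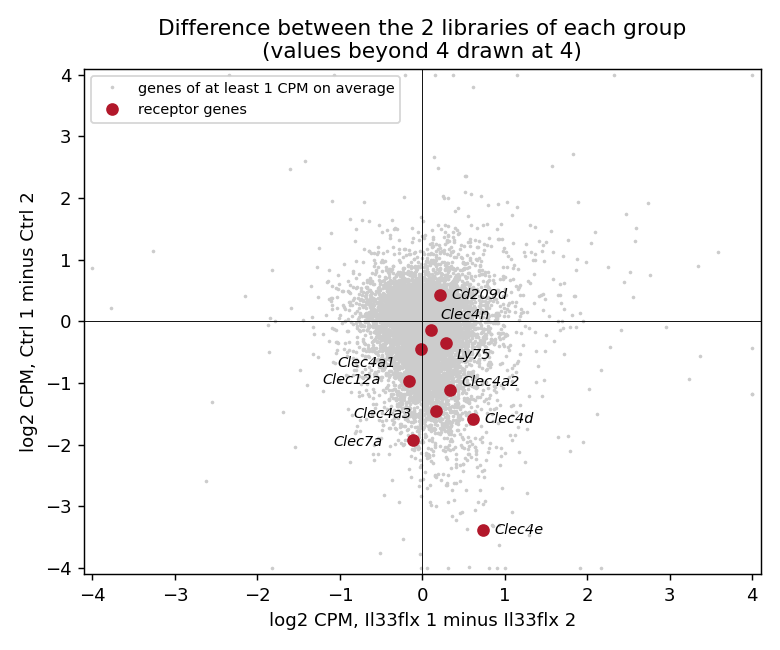
Difference in log2 CPM between the 2 libraries of Il33flx (x axis) and between the 2 libraries of Ctrl (y axis), for the 10 receptor genes (red) and for 11410 genes of at least 1 CPM on average (grey). Clec4e, Clec7a, Clec4d and Clec4a3 lie far below 0 on the Ctrl axis, at -3.39, -1.93, -1.59 and -1.45, whereas on the Il33flx axis all 10 genes lie between -0.16 and 0.74.

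Among the inhibitory receptors, Clec12a encodes MICL, which binds uric acid crystals of dead cells and carries an inhibitory motif (ENSMUSG00000053063, chromosome 6, 129342691 to 129365303, plus strand). It had 184 and 205 CPM in Il33flx libraries, against 106 CPM in Ctrl 1 and 206 CPM in Ctrl 2. Ctrl 2 matched the higher Il33flx library and Ctrl 1 was low. For Clec12a the log2 fold change was 0.32 ± 0.31 SE (95% interval -0.44 to 1.07, adjusted p = 0.995, edgeR), and -0.08 without Ctrl 1.

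Clec4a2 encodes DCIR1, a member of the DCIR family with an inhibitory motif (ENSMUSG00000030148, chromosome 6, 123106428 to 123143999, plus strand). It had 9.49 and 7.51 CPM in Il33flx libraries, against 3.48 CPM in Ctrl 1 and 7.48 CPM in Ctrl 2. The groups did not overlap, but Il33flx 2 and Ctrl 2 were next to each other. For Clec4a2 the log2 fold change was 0.63 ± 0.41 SE (95% interval -0.34 to 1.61). Its unadjusted p of 0.166 was the smallest of the 10 genes (adjusted p = 0.995, edgeR). Without Ctrl 1 the value was 0.19. Of the 50-base stretches in its annotated transcripts 6.83% also occur in transcripts of other genes, among them Clec4a4 and Clec4b1, so its count is uncertain to that extent, and a loss of reads there was not measured.

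Clec4a1 and Clec4a3 encode DCIR4 and DCIR3, relatives of DCIR1 that lack its inhibitory motif in the mouse. Clec4a1 (ENSMUSG00000049037, chromosome 6, 122921848 to 122934619, plus strand) had 12.8 and 13.0 CPM in Il33flx libraries, against 9.65 CPM in Ctrl 1 and 13.2 CPM in Ctrl 2. It was among the steadiest of the set, and its log2 fold change was 0.18 ± 0.25 SE (adjusted p = 0.995, edgeR). Clec4a3 (ENSMUSG00000043832, chromosome 6, 122952515 to 122969875, plus strand) had 16.2 and 14.4 CPM in Il33flx libraries, against 7.5 CPM in Ctrl 1 and 20.5 CPM in Ctrl 2. Here both Il33flx libraries fell between the Ctrl libraries. Its log2 fold change of Il33flx over Ctrl was 0.13 ± 0.45 SE with all libraries (adjusted p = 0.995, edgeR). Without Ctrl 1 it was -0.41 (unadjusted p = 0.0779, adjusted p = 0.956, edgeR).

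Ly75 and Cd209d were the genes of the set for which Ctrl 1 was not the lowest library. Ly75 encodes DEC-205, an endocytic receptor of type 1 conventional DCs that delivers antigen for presentation (ENSMUSG00000026980, chromosome 2, 60292103 to 60383303, minus strand). It had 126 and 103 CPM in Il33flx libraries, against 104 CPM in Ctrl 1 and 133 CPM in Ctrl 2. Each group had a lower and a higher library, and the groups overlapped throughout. For Ly75 the log2 fold change was -0.05 ± 0.21 SE (95% interval -0.55 to 0.45, adjusted p = 0.998, edgeR), the narrowest of the 10 genes. An antisense gene, Gm13571, shares 249 exonic bases with Ly75, and without a stated strand setting their reads cannot be told apart there.

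Cd209d encodes SIGNR3, a relative of the human lectin DC-SIGN that binds fucose- and mannose-rich glycans (ENSMUSG00000031495, chromosome 8, 3871824 to 3878555, minus strand). It had 65 and 56 counts in Il33flx libraries, against 75 in Ctrl 1 and 55 in Ctrl 2, or 0.921 and 0.791 CPM in Il33flx against 0.977 and 0.731 CPM in Ctrl. The exact 95% Poisson intervals of the 4 libraries ran from 0.551 to 1.22 CPM and all overlapped. The log2 fold change of Il33flx over Ctrl was 0.00 ± 0.46 SE, with a 95% interval of -1.10 to 1.10 (adjusted p = 1, edgeR). Differences within that interval were not resolved by these libraries.

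Levels between genes were compared per kilobase of exon, with the length of all annotated exons merged. Clec12a was the most abundant at 35.2 ± 2.69 CPM per kb in Il33flx and 28.3 ± 12.8 CPM per kb in Ctrl (SD, n = 2 each), and 89.3% of tested genes had a lower mean. Ly75 followed at 16.6 ± 2.34 CPM per kb in Il33flx and 17.1 ± 2.92 CPM per kb in Ctrl. Its highest library and the lowest Clec12a library were both at 19.2 CPM per kb, so these ranges touched. Clec4a3, Clec7a and Clec4a1 came next, with means over the 4 libraries of 11.0, 8.77 and 7.81 CPM per kb, and their ranges overlapped. Clec4a1 was at 6.20 CPM per kb or above and Clec4n at 3.53 CPM per kb or below, but Clec7a in Ctrl 1, at 2.78 CPM per kb, lay within the range of Clec4n. Clec4n, Clec4a2 and Clec4e had means of 3.05, 2.39 and 1.92 CPM per kb and overlapped. Cd209d and Clec4d had the lowest means, at 0.930 and 0.880 CPM per kb, and overlapped with each other and with Clec4e, whose Ctrl 1 value of 0.252 CPM per kb was below every value of both.

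Of the summed level per kilobase of the 10 genes, Clec12a took 35.3% and 40.4% in Il33flx libraries, against 35.3% in Ctrl 1 and 37.0% in Ctrl 2. Ly75 took 19.3% and 16.3% in Il33flx libraries, against 27.7% in Ctrl 1 and 19.0% in Ctrl 2. Clec7a took 11.1% and 12.3% in Il33flx libraries, against 5.11% in Ctrl 1 and 10.4% in Ctrl 2. The mix of receptors in Ctrl 1 thus held a larger share of Ly75 and a smaller share of Clec7a than that of the other libraries. The sum itself was 94.5 and 91.9 CPM per kb in Il33flx libraries, against 54.3 in Ctrl 1 and 101 in Ctrl 2. The level of Ly75 was not raised in Ctrl 1, at 15.1 CPM per kb, against 14.9 to 19.2 CPM per kb in the other libraries. Clec7a over Clec12a, in CPM per kb, was 0.314 and 0.304 in Il33flx libraries, against 0.145 in Ctrl 1 and 0.282 in Ctrl 2.

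**Figure D3:**
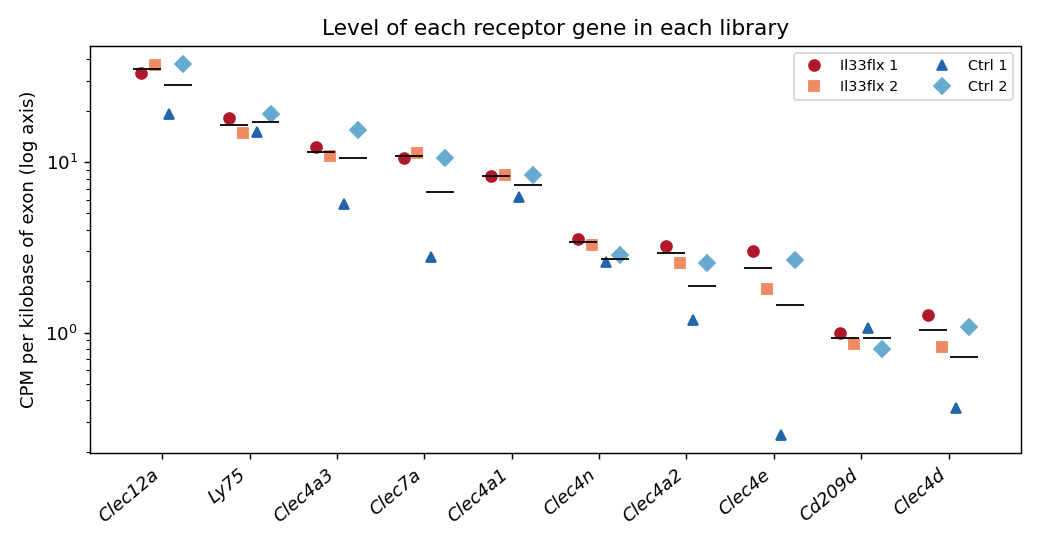
Level of the 10 receptor genes in CPM per kilobase of exon (y axis, log scale), in order of mean level, with a symbol for each library of Il33flx (left of each gene) and Ctrl (right) and a line for each group's mean. Clec12a is highest and Clec4d lowest, and Ctrl 1 drops below the other libraries most for Clec4e, at 0.252 CPM per kb.

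The genes also share position. Clec4a1, Clec4a3, Clec4a2, Clec4n, Clec4d and Clec4e lie within 368 kb of chromosome 6 (122921848 to 123289870), and Clec12a and Clec7a within 130 kb farther along (129342691 to 129472779). The first stretch holds 9 coding genes, all tested, and only 3 of them are outside the receptor set. Ctrl 1 was the lowest library for 8 of the 9, beside 36.0% of all genes tested. The low values were not even along this stretch. Clec4a4, which encodes the type 2 DC receptor DCIR2 and lies between Clec4a3 and Clec4a2, had 9.28 and 6.97 CPM in Il33flx libraries, against 2.37 CPM in Ctrl 1 and 6.51 CPM in Ctrl 2. Clec4b1, in the same stretch, had 4.02 and 6.79 CPM in Il33flx libraries, against 6.81 CPM in Ctrl 1 and 6.95 CPM in Ctrl 2, with Il33flx 1 low. Clec4b2, also there, had 6.52 and 5.87 CPM in Il33flx libraries, against 4.65 CPM in Ctrl 1 and 5.24 CPM in Ctrl 2. In the second stretch, Clec9a, which senses actin of dead cells on type 1 DCs, had 120 and 107 CPM in Il33flx libraries, against 99.8 CPM in Ctrl 1 and 110 CPM in Ctrl 2. No gene of either stretch was called (0 of 9 and 0 of 5 tested, edgeR).

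**Figure D4:**
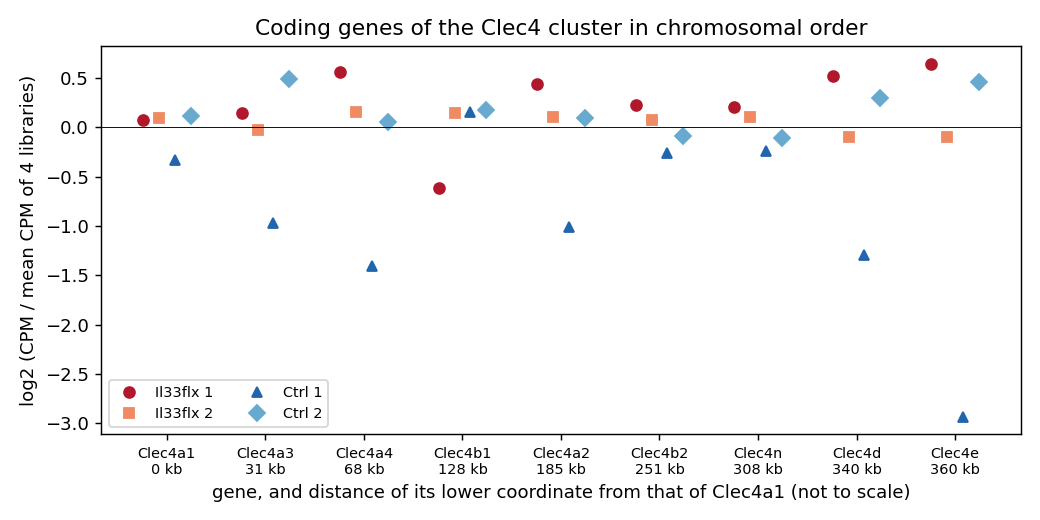
Level of the 9 coding genes of the Clec4 cluster in chromosomal order (x axis, not to scale, with distance in kb), as log2 of the CPM over the mean of the 4 libraries (y axis), with a symbol for each library. Ctrl 1 is lowest for every gene except Clec4b1 and farthest below for Clec4e, at 1.25 CPM.

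The shared steps below the receptors were read in every library. Fcer1g, the shared gamma chain, had 124 and 95.8 CPM in Il33flx libraries, against 122 and 119 CPM in Ctrl libraries. Syk had 218 and 179 CPM in Il33flx libraries, against 225 and 175 CPM in Ctrl libraries. Card9 had 21.5 and 23.9 CPM in Il33flx libraries, against 21.5 and 23.7 CPM in Ctrl libraries. The log2 fold changes of these 3 genes were -0.13, -0.01 and 0.01, each with an SE of 0.20 to 0.21 (adjusted p = 0.995 to 1, edgeR), and Ctrl 1 was close to Ctrl 2 for Fcer1g and Card9.

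Of 34 signalling genes tested, 0 were called higher and 0 lower in edgeR, with 11 positive and 23 negative log2 fold changes and a median of -0.12, which was -0.01 without Ctrl 1. At an unadjusted p below 0.05 stood 0 of the 34, beside 3.26% of all genes tested (edgeR). Without overlap 2 were higher in Il33flx and 9 lower, beside 15.4% and 14.9% of all genes tested. Those with the smallest p were Irf5, a transcription factor activated below Syk, Rela, an NF-kB subunit, Vav1, an exchange factor, and Src, a kinase. Irf5 had 919 and 986 CPM in Il33flx libraries, against 1346 and 1072 CPM in Ctrl libraries. The log2 fold changes of Irf5, Rela, Vav1 and Src were -0.34, -0.31, -0.30 and -0.60 (unadjusted p = 0.115 to 0.206, adjusted p = 0.995 for each, edgeR). Ctrl 1 was the highest library for 21 of the 34 genes (61.8%), beside 34.2% of all genes tested.

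Of 26 other lectin and lectin-like receptors of myeloid cells 20 were tested, and 0 were called higher and 0 lower (edgeR). None of the 20 had an unadjusted p below 0.05, beside 3.26% of all genes tested (edgeR). Their median log2 fold change was 0.15, and 0.24 without Ctrl 1. In 7 of the 20 the groups did not overlap with Il33flx higher, beside 15.4% of all genes tested, and in 1, Clec4b1, with Il33flx lower, beside 14.9%. Ctrl 1 was the lowest library for 9 of the 20 and the highest for 4, beside 36.0% and 34.2% of all genes tested. Cd302, which encodes an endocytic lectin, had 12.4 and 14.0 CPM in Il33flx libraries, against 5.82 CPM in Ctrl 1 and 10.6 CPM in Ctrl 2. Mrc1, the mannose receptor gene, had 4.33 and 4.76 CPM in Il33flx libraries, against 3.50 and 2.57 CPM in Ctrl libraries. The genes with the smallest p, Clec1a, Cd302, Cd209b (SIGNR1) and Mrc1, had log2 fold changes of 0.77, 0.68, 0.79 and 0.58 (unadjusted p = 0.0830 to 0.117, adjusted p = 0.995 for each, edgeR).

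Of 24 genes known to be induced through Dectin-1, Dectin-2 or Mincle 20 were tested, and 0 were called in either direction (edgeR). At an unadjusted p below 0.05 stood 1 of the 20, beside 3.26% of all genes tested (edgeR). The median log2 fold change was 0.06, and 5 of the 20 were higher in Il33flx without overlap and 0 lower, beside 15.4% and 14.9% of all genes tested. Il1b, the gene of the cytokine IL-1 beta, had 488 and 649 CPM in Il33flx libraries, against 328 and 442 CPM in Ctrl libraries. Its log2 fold change was 0.56 ± 0.23 SE (unadjusted p = 0.0479, adjusted p = 0.995, edgeR). The chemokine gene Cxcl2, the cytokine gene Tnf and the immediate early gene Egr1 followed, with log2 fold changes of 0.97, -0.69 and 0.20 (adjusted p = 0.995 for each, edgeR). Cxcl2 had 7.28 and 3.84 CPM in Il33flx libraries, against 1.37 CPM in Ctrl 1 and 4.29 CPM in Ctrl 2, with Ctrl 1 lowest as for Clec4e. Tnf had 8.90 and 5 CPM in Il33flx libraries, against 15.7 CPM in Ctrl 1 and 6.74 CPM in Ctrl 2, with Ctrl 1 highest. Ctrl 1 was the lowest library for 9 of the 20 genes and the highest for 6, beside 36.0% and 34.2% of all genes tested.

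**Figure D5:**
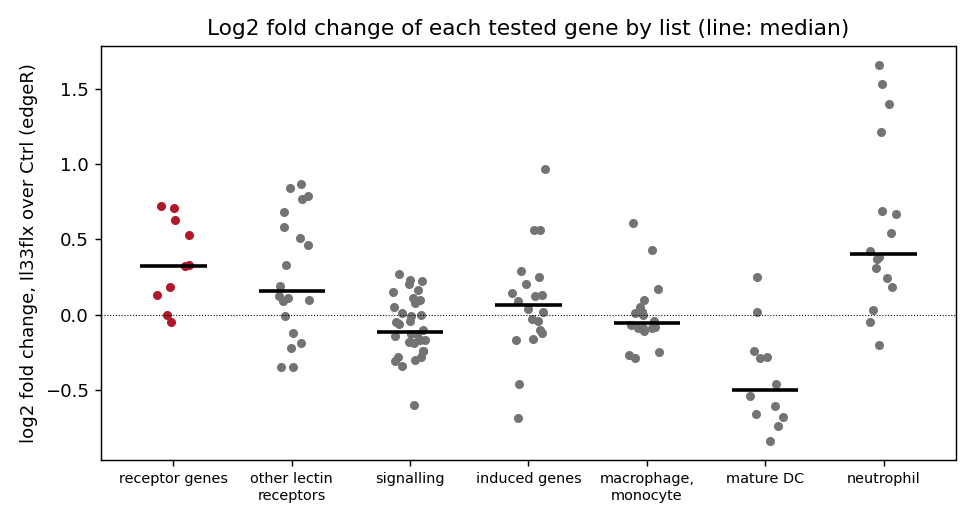
Log2 fold change of Il33flx over Ctrl (y axis, edgeR) for each tested gene of the receptor set (red) and of 6 other lists (grey), with a line at each median. Receptor genes have a median of 0.32, signalling genes -0.12, and mature DC markers -0.50.

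Markers of other cells moved with the libraries as well. Many of the receptors are also made by macrophages, monocytes and neutrophils. The 18 macrophage and monocyte markers summed to 2191 and 2070 CPM in Il33flx libraries, against 2212 CPM in Ctrl 1 and 1975 CPM in Ctrl 2, so Ctrl 1 was not low for them as a sum. Lyz2, the most abundant, made up a large part of it, at 1060 and 1045 CPM in Il33flx libraries, against 1113 and 917 CPM in Ctrl libraries. Of the 18 markers 5 were lower in Ctrl 1 than in Ctrl 2, beside 48.8% of all genes tested. For 10 of the 18 Ctrl 1 was the highest library, beside 34.2%. Among these 10, Csf1r and Cd68 had 247 and 406 CPM in Ctrl 1, against 176 and 336 CPM in Ctrl 2. Ctrl 1 was the lowest library for only 3 of the 18, beside 36.0% of all genes tested. Ccr2, Ly6c2 and Cd14 were among the 5 that were lower in Ctrl 1 than in Ctrl 2. Ccr2, the receptor of monocyte chemokines, had 125 and 96.8 CPM in Il33flx libraries, against 67 CPM in Ctrl 1 and 204 CPM in Ctrl 2. Ly6c2 had 67.9 and 38.1 CPM in Il33flx libraries, against 41.6 CPM in Ctrl 1 and 67.1 CPM in Ctrl 2, with Il33flx 2 lowest. Cd14 had 48.9 and 52.1 CPM in Il33flx libraries, against 32.2 and 34.1 CPM in Ctrl libraries (log2 fold change 0.61, unadjusted p = 0.0155, adjusted p = 0.995, edgeR). The 12 mature DC markers summed to 2351 and 2525 CPM in Il33flx libraries, against 3690 CPM in Ctrl 1 and 2310 CPM in Ctrl 2, opposite to Clec4e and Clec7a. Ccr7, the receptor that guides mature DCs to lymph nodes, had 475 and 415 CPM in Il33flx libraries, against 999 CPM in Ctrl 1 and 489 CPM in Ctrl 2, and Cd83, the most abundant of these markers, had 1084 and 1345 CPM in Il33flx libraries, against 1266 and 1126 CPM in Ctrl libraries. The 16 neutrophil markers summed to 957 and 672 CPM in Il33flx libraries, against 549 and 569 CPM in Ctrl libraries. Mpo was the most abundant of them, with 191 and 143 CPM in Il33flx libraries, against 106 and 38.0 CPM in Ctrl libraries, and Prtn3 had the smallest p, with 16.0 and 14.4 CPM in Il33flx libraries, against 7.64 and 3.90 CPM in Ctrl libraries (log2 fold change 1.40, adjusted p = 0.995, edgeR). Ctrl 1 was the lowest library for 7 of the 16 neutrophil markers (43.8%), beside 36% of all genes tested. Among these, S100a8, which encodes a calprotectin subunit, had 78.6 and 36.9 CPM in Il33flx libraries, against 20.6 CPM in Ctrl 1 and 59.0 CPM in Ctrl 2. In all, 10 of the 16 were lower in Ctrl 1 than in Ctrl 2, beside 48.8% of all genes tested. S100a8, S100a9 and the chemokine receptor gene Cxcr2 were among the 10, whereas Mpo and Prtn3 went the other way. Csf1r, Cd68, Ccr2, Ly6c2, S100a8, S100a9 and Cxcr2 were chosen after their values were seen.

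The 10 type 1 DC markers summed to 9537 and 10496 CPM in Il33flx libraries, against 11576 and 10877 CPM in Ctrl libraries, with Irf8 alone at 3346 and 3819 CPM in Il33flx against 4817 and 3946 CPM in Ctrl. The 11 type 2 DC markers summed to 742 and 653 CPM in Il33flx libraries, against 698 and 619 CPM in Ctrl libraries, led by Sirpa at 319 and 277 CPM in Il33flx against 298 and 258 CPM in Ctrl. Both subsets were thus read in every library. The 8 plasmacytoid DC markers summed to 253 and 175 CPM in Il33flx libraries, against 206 and 202 CPM in Ctrl libraries, with Siglech at 29.8 and 17.2 CPM in Il33flx against 16.3 and 18.3 CPM in Ctrl and the more abundant Bst2 at 69.3 and 49.8 CPM in Il33flx against 64.1 and 66.1 CPM in Ctrl. The 10 B cell markers summed to 133 and 108 CPM in Il33flx libraries, against 77.6 and 73.7 CPM in Ctrl libraries, led by Cd79b at 32.5 and 30.5 CPM in Il33flx against 22.3 and 15.3 CPM in Ctrl. Of these, 9 were higher in Il33flx without overlap, beside 15.4% of all genes tested, and their list had a median log2 fold change of 1.02. An unadjusted p below 0.05 was found for 6 of the 10, beside 3.26% of all genes tested, and 0 passed the adjusted threshold (edgeR). Pax5, the B lineage factor and the gene of smallest p, had 1.74 and 1.06 CPM in Il33flx libraries, against 0.182 and 0.186 CPM in Ctrl libraries (log2 fold change 2.91, unadjusted p = 0.00132, adjusted p = 0.791, edgeR). The 10 T cell and EL4 markers summed to 95 and 82.6 CPM in Il33flx libraries, against 151 and 98.5 CPM in Ctrl libraries, led by Lck at 31.9 and 27.6 CPM in Il33flx against 62.4 and 32.6 CPM in Ctrl. Cd3e, with the smallest p of that list, had 9.11 and 6.69 CPM in Il33flx against 14.0 and 10.8 CPM in Ctrl (log2 fold change -0.65, adjusted p = 0.995, edgeR). No marker of the 8 lists was at 0 in all libraries, and the part of these cells in the receptor values was not tested.

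In the authors' deposited table of their DESeq2 comparison, the log2 fold changes of the 10 genes ran from -0.07 for Ly75 to 0.70 for Clec4e, each with an adjusted p of 1.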

How the data were processed

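The authors deposited a table of raw gene counts, in whole reads, for 4 libraries of sorted mouse DCs. The tools were DESeq2, HTSeq, STAR and Trimmomatic 0.39, with build GRCm38, per the submitters' processing notes. The strand setting, annotation release and other versions are not given in the sources used here. Of counted reads 69.9% to 72.2% lay in genes. The 5 HTSeq summary rows, with 21.9% to 23.1% of reads not uniquely aligned among them, stayed out of library sizes and tests.

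The authors' deposited table held a signal per library (counts divided by a size factor), log2 fold changes with standard errors, a Wald score, and p-values. It was used for symbols and where the text names it.

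The test of Il33flx over Ctrl was edgeR's quasi-likelihood test (edgeR 4.0.16, R 4.3.3), using filterByExpr, TMM factors and no covariate, on all 14995 genes passing the filter. P-values were adjusted over all of them by the Benjamini-Hochberg method and genes below 0.05 were called. A standard error is the log2 fold change over the square root of F. The biological coefficient of variation was 28.6%. DESeq2 1.42.0, limma-voom (limma 3.58.1), other scalings and filters, a replicate block and each library left out were alternatives. The procedure was tested on simulated data.

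Coordinates, exon lengths and shared 50-base stretches came from GENCODE M21 of the same build. The receptor genes, pathway lists and marker lists were chosen with earlier results of these data known. Named genes were all 10 receptors, up to 4 genes of smallest unadjusted p in each pathway list among those of at least 1 CPM on average, Fcer1g, Syk and Card9, the most abundant gene and the gene of smallest p in marker lists, Il33 and the sort genes. Clec4b1, Clec4b2 and Clec9a were added as neighbours on the chromosome, after their values were seen.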

Additional observations from a re-analysis of the deposited data

How the results depend on the processing

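No receptor gene tested was called under any of the 11 alternatives, where the lowest adjusted p was 0.119 and Cd209d did not pass the filter of 1 CPM in 2 libraries, and no gene of the 3 pathway lists was called either. Over all genes tested, edgeR called 1 gene higher and 0 lower. It called 0 higher with library size alone and 0 with no filter, and limma-voom called 0. DESeq2 called 31 higher and 22 lower, and edgeR with replicate numbers as a block called 19 higher and 14 lower. With a library left out the count was 0 to 19 higher and 0 to 19 lower, and a fit with a single library in a group assumes that it varies like the other group. The labels do not say that replicate numbers pair samples, and deviations from the group means correlated at -0.032 between same-numbered libraries over 14995 genes. With the block, Clec7a alone among the 10 genes had an unadjusted p below 0.05 (0.0174, adjusted p = 1, edgeR).

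Signs changed where values were small or where Ctrl 1 was left out. With a library left out, log2 fold changes of Il33flx over Ctrl ran from -0.14 to 3.24 for Clec4e, from -0.05 to 1.53 for Clec4d, from -0.08 to 0.87 for Clec12a, from -0.02 to 0.42 for Clec4a1, from -0.41 to 1.02 for Clec4a3, from -0.20 to 0.13 for Ly75 and from -0.20 to 0.23 for Cd209d. In these 5 genes of the Clec family the negative value was that without Ctrl 1. Without Ctrl 2 Clec7a stood at 1.96 (adjusted p = 0.119, edgeR). Cd209d was at -0.02 with DESeq2 size factors, -0.01 with no filter and -0.02 with DESeq2, and Ly75 at 0.03 with library size alone. The scaling moved the median of all genes to 0.091 with library size alone, from 0.014. Levels per kilobase under the 2 other scalings, an alternative chosen after seeing the data, stayed within 1 SD of the values given. The low counts of Cd209d and Clec4d limit what can be said of them.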
